A study of Mus musculus with 36 samples.

Results

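The 10 genes described here encode amino acid transporters of the cell surface, and their expression was followed through the induction of the transcription factor Ikaros in a mouse pre-B cell line. They were chosen by name, as Slc7a5 and 9 other carriers or carrier subunits, and all 10 had a row among the 12762 genes of the deposited table. The members are Slc7a5, Slc3a2, Slc7a6, Slc43a1, Slc7a1, Slc7a11, Slc1a5, Slc1a4, Slc38a1 and Slc38a2. The cells were of the B3 line, which stands for an early cycling stage of B cell development. Ikaros cells carried a retroviral (MSCV) vector for HA-tagged Ikaros fused to the ERt2 hormone-binding domain, with IRES-GFP, and control cells carried the same vector with ERt2 alone. Both were sorted for GFP, so each line is a transduced population that overexpresses its construct, and neither is a primary cell. The fusion protein enters the nucleus once 4-hydroxytamoxifen (4-OHT) is added. The labels list 0.5 uM 4-OHT for all 36 libraries, which cover both lines at 0, 2, 6, 12, 18 and 24 h with n = 3 per group. According to the methods the 0 h cells received no drug and were collected separately, so a comparison with 0 h also compares collections. By the methods, replicates were separate culture batches. The labels number them 1, 2 and 4 at 0 h and 1, 3 and 4 afterwards (replicates 1 to 3 in this order). They do not say whether a number shared by 0 h and later times means the same culture. The p-values measure the spread among these cultures of 1 cell line.

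A dividing lymphocyte imports amino acids through carriers of several families. Slc7a5 is the light chain of LAT1, which takes up leucine and other large neutral amino acids in exchange for intracellular ones such as glutamine, and Slc3a2 (CD98) is the heavy chain that brings it and several other light chains to the plasma membrane. Leucine that enters the cell activates the growth kinase complex mTORC1, and in B and T cells these carriers are known to be high in proliferating stages. The study had itself picked Slc7a5 for RT-PCR measurements, as a gene already known to respond to Ikaros. It reported a late fall of Slc7a5 in each of its replicate time courses.

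The table held log2 expression after the authors' normalization, and the depth behind each value is unknown. Library medians lay between 11.70 and 11.73. Ikzf1, the Ikaros gene, was between 13.95 and 14.85 in the 18 control libraries and between 19.63 and 20.93 in the 18 Ikaros libraries, so the line labels held in every library. Reads of the vector and of the endogenous gene cannot be told apart in this value. All 12 of the listed pre-B cell markers had a row, against 1 of 8 T cell, 2 of 10 myeloid, 4 of 9 erythroid and 0 of 7 stroma marker symbols. Above the median gene lay 9 of the pre-B cell markers and, of the others, the erythroid marker Hbb-b2, which ranged from 8.44 to 14.44 over the libraries. The mean correlation of a library with the others of its group was lowest for control batch 4 at 18 h, at 0.966. In bulk RNA, fewer cells that express a gene and less RNA per cell cannot be told apart. Every difference below is Ikaros minus control on the log2 scale, tested with limma across all genes and called at an adjusted p under 0.05.

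By 24 h, 8 of the 10 transporters were lower in Ikaros cells than in control cells, 1 was higher and 1 did not pass the test. Called members numbered 2 at 2 h (beside 19.1% of all genes), then 6 of 10 at 6 h (37.3%), 8 of 10 by 12 h (45.8%), all 10 at 18 h (58.2%) and 9 by 24 h (62.9%), so most genes of the table differed between the lines late in the course. In 1 direction, 31.9% of all genes were lower at 24 h, beside the 8 of 10 members. The members were chosen with earlier results of these data known, so this excess is not an independent test of the set. The median difference of the members at 24 h was -1.47, beside a median of -0.0055 over all genes. At 24 h the 3 libraries of one line lay wholly below those of the other for all 10 members, 8 with Ikaros cells lower (36.1% of all genes) and 2 with Ikaros cells higher (35%). At 0 h, where 8.33% of all genes were called, the test called 1 member, Slc1a4, and it was higher in Ikaros cells.

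**Figure D1:**
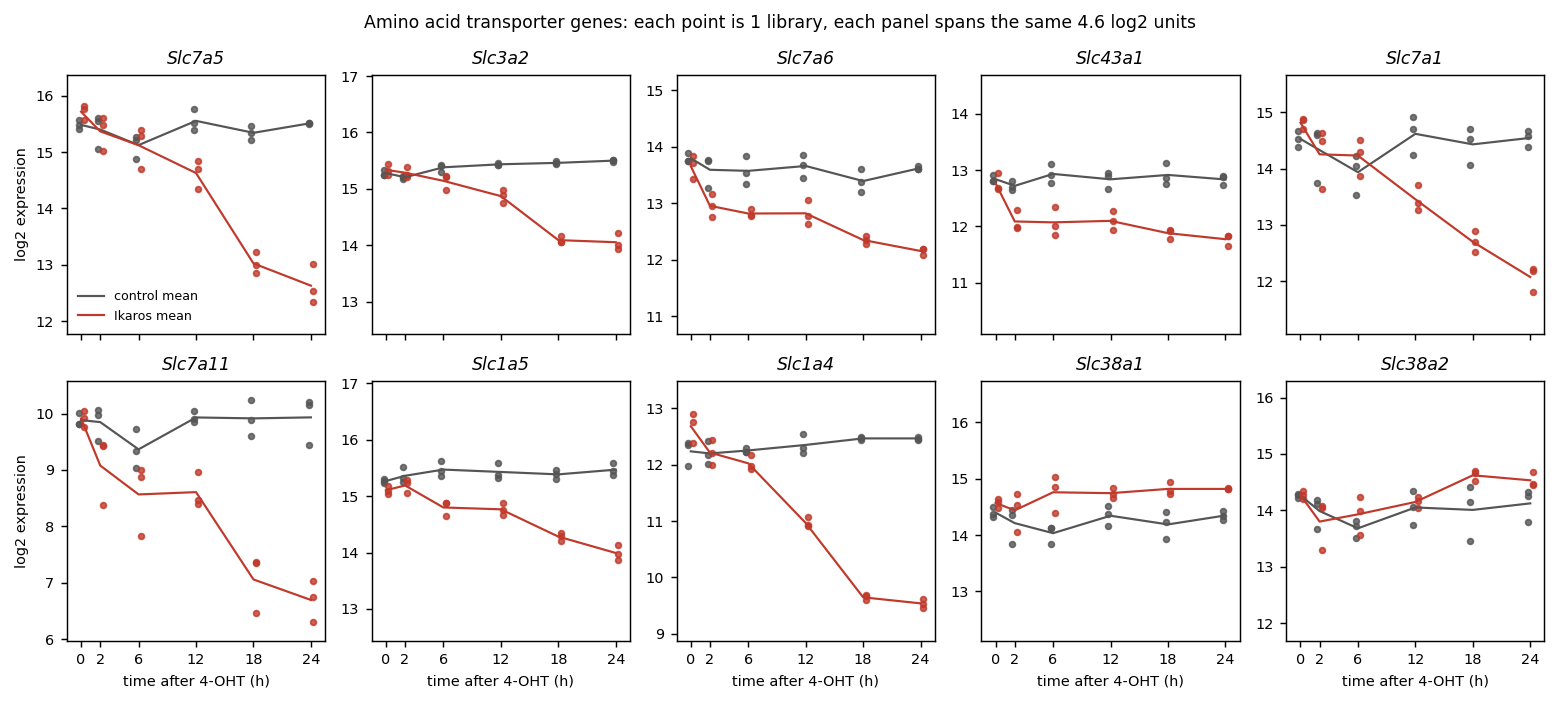
Log2 expression (vertical axis) of the 10 transporter genes against hours after 4-OHT (horizontal axis), with 1 point per library and lines through the means of control (grey) and Ikaros (red) cells, n = 3 per group. In total 8 genes end lower in Ikaros cells, down to 10.6% of control for Slc7a11, whereas the Slc38a1 and Slc38a2 libraries of Ikaros cells at 24 h lie above those of control cells.

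Slc7a5 was at 13.6% of control by 24 h, and its heavy chain partner Slc3a2 at 36.7%. Slc7a5 (ENSMUSG00000040010) lies on GRCm38 chromosome 8, 121881150 to 121907694, on the reverse strand. Its control libraries at 0 h read 15.48, 15.40 and 15.56 in batches 1, 2 and 4, and its Ikaros libraries 15.76, 15.57 and 15.81. The Ikaros values were the higher ones without overlap, although the difference of 0.23 ± 0.19 (SE) did not pass the test (adjusted p = 0.582). At 18 h the control libraries read 15.47, 15.34 and 15.21 in batches 1, 3 and 4, against 12.99, 13.23 and 12.86 in Ikaros cells. At 24 h the control libraries read 15.51, 15.51 and 15.52 and the Ikaros libraries 12.53, 13.02 and 12.34. At these times every Ikaros library lay below all 18 control libraries of the course, the lowest of which read 14.89 at 6 h. The 18 h difference was -2.32 ± 0.19 (SE, adjusted p = 7.59e-11). The 12 h difference of -0.92 was called (adjusted p = 2.59e-04), and without batch 1 in every group it was -0.68 (adjusted p = 0.0611). The 24 h difference corresponds to 13.6% of control with a 95% interval of 10.3% to 17.8%, and within batches 1, 3 and 4 it was -2.98, -2.48 and -3.18. Slc7a5 is overlapped on the other strand by the annotated gene Gm20388. By the methods the libraries kept the strand (dUTP), but the strand setting of the gene counting is not given in the sources used here.

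Slc3a2 (ENSMUSG00000010095; chromosome 19, 8706882 to 8723369, reverse strand) had the tightest control libraries of the members, from 15.18 to 15.52 over all 18. Its Ikaros libraries at 6 h read 15.23, 15.22 and 14.98 beside 15.43, 15.31 and 15.41 in control cells. The groups did not overlap, and the difference of -0.24 ± 0.08 (SE, adjusted p = 0.0189) was a small one that lost its call when any of the replicates 1, 2 or 3 was left out. Larger gaps followed. Ikaros libraries read 14.75, 14.97 and 14.89 (12 h), then 14.05, 14.16 and 14.06 (18 h) and finally 14.00, 14.22 and 13.94 (24 h), all below the control range. The differences were -0.56 (12 h), -1.37 (18 h) and -1.45 ± 0.08 (24 h; SE, adjusted p = 1.40e-14). Of the 24 h difference, 94.6% was present at 18 h for Slc3a2 and 80.4% for Slc7a5.

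Slc7a6 and Slc43a1 were the only members called at 2 h, at a time when Slc7a5 and Slc3a2 overlapped between the lines. These 2 of 10 members stood beside 19.1% of all genes called at that time, which is about the same share. Slc7a6 encodes y+LAT2, another light chain that pairs with Slc3a2 and exchanges cationic for neutral amino acids, and Slc43a1 encodes LAT3, a carrier of branched-chain amino acids and phenylalanine that works without a heavy chain. Slc7a6 (ENSMUSG00000031904; chromosome 8, 106168857 to 106198706, forward strand) read 13.75, 13.76 and 13.27 in control batches 1, 3 and 4 at 2 h and 12.95, 13.17 and 12.75 in Ikaros cells. Slc43a1 (ENSMUSG00000027075; chromosome 2, 84838850 to 84863594, forward strand) read 12.65, 12.71 and 12.80 against 11.98, 12.00 and 12.29. Neither gene overlapped between the lines, and all 3 Ikaros libraries of each lay below the whole control range of the course. Slc7a11 did not overlap at 2 h either, and 14.5% of all genes lay wholly lower in Ikaros cells. The differences were -0.64 ± 0.15 for Slc7a6 (SE, adjusted p = 0.00256) and -0.63 ± 0.13 for Slc43a1 (SE, adjusted p = 6.38e-04). Both calls were lost in a fit of the 2 h groups alone, at adjusted p = 0.122 and 0.0551. Without batch 1 the Slc7a6 call was lost (-0.56, adjusted p = 0.0954), and without batch 3 both were lost (-0.66 and -0.59, adjusted p = 0.0989 and 0.0745).

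After 2 h no single interval between collections held a called change for Slc7a6 or Slc43a1. Slc43a1 differed by -0.86 (6 h), -0.74 (12 h), -1.03 (18 h) and -1.06 ± 0.13 (24 h; SE, adjusted p = 4.40e-08). Its 24 h Ikaros libraries read 11.65, 11.84 and 11.83 beside 12.88, 12.89 and 12.73, which is 48.0% of control. Slc7a6 differed by -0.76 (6 h), -0.84 (12 h), -1.05 (18 h) and -1.47 ± 0.15 (24 h; SE, adjusted p = 1.85e-09), when it stood at 36.1% of control. At 6 h, 81.1% of the 24 h difference was present for Slc43a1 and 51.4% for Slc7a6, whereas Slc7a5 stood at 0.070%. Against its own 0 h, Slc7a5 at 6 h was at -0.59 in Ikaros cells (limma, adjusted p = 0.0186). In control cells it was at -0.36 and not called (adjusted p = 0.219). No test was made of a difference in timing between genes.

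Slc7a1 and Slc7a11 are the remaining members of the Slc7 family. Slc7a1 encodes CAT1, the carrier of arginine and lysine, and Slc7a11 encodes xCT, the light chain that with Slc3a2 imports cystine in exchange for glutamate and so supplies cysteine for glutathione. Slc7a1 (ENSMUSG00000041313; chromosome 5, 148327410 to 148399904, reverse strand) read 14.58, 14.66 and 14.39 in control cells at 24 h and 12.19, 12.22 and 11.82 in Ikaros cells. Slc7a11 (ENSMUSG00000027737; chromosome 3, 49892526 to 50443614, reverse strand) read 10.20, 10.15 and 9.44 against 6.76, 7.02 and 6.31. For both genes the 24 h Ikaros libraries lay far below every control library, and batch 4 was the lowest in either line. Slc7a1 differed by -2.47 ± 0.25 (SE, adjusted p = 2.64e-09), or 18.1% of control, and Slc7a11 by -3.24 ± 0.31 (SE, adjusted p = 7.31e-10), or 10.6% of control with a 95% interval of 6.84% to 16.4%.

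The members with the widest scatter among control libraries were Slc7a1, which spanned 1.39 over the 18 libraries, and Slc7a11, which spanned 1.22. Slc7a11 also had the lowest mean level of the members, at 9.07 beside 11.72 for the median gene. This lies below the 25th percentile of all genes. At 6 h Slc7a1 overlapped between the lines with a difference of 0.29 that did not pass, and at 12 h it differed by -1.16 ± 0.25 (SE, adjusted p = 4.33e-04). Slc7a11 differed by -0.77 ± 0.31 at 2 h, which did not pass (SE, adjusted p = 0.0821) but did with the culture batch as a block (adjusted p = 0.00961). At 6 h its difference of -0.80 was called at adjusted p = 0.0426, and without control batch 1 of that time it was -0.62 and not called (adjusted p = 0.172). Nor was it called without batch 1 or batch 3 in every group (-0.77 and -1.02, adjusted p = 0.230 and 0.106). Later differences of Slc7a11 were -1.32 at 12 h, which was -1.16 and just short of the threshold without batch 1 (adjusted p = 0.0502), and -2.86 at 18 h. Its gene body is overlapped on the same strand by the annotated genes Gm37692 and Gm37498, and on the other strand by Gm37854, Gm37826 and Gm2345. The unknown strand setting of the counting is thus a limit here too.

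Slc1a5 and Slc1a4 belong to 1 family of neutral amino acid exchangers but separated from control at different sizes. Slc1a5 encodes ASCT2, the main sodium-dependent entry route of glutamine in many dividing cells, and Slc1a4 encodes ASCT1, which carries alanine, serine and cysteine. Slc1a5 (ENSMUSG00000001918; chromosome 7, 16781340 to 16798274, forward strand) read 15.36, 15.44 and 15.61 in control cells at 6 h and 14.64, 14.88 and 14.88 in Ikaros cells. At 24 h the values were 15.38, 15.45 and 15.58 against 13.87, 14.13 and 13.98. The groups did not overlap at either time, and the difference grew from -0.67 ± 0.10 (SE, adjusted p = 5.65e-06) at 6 h to -1.48 ± 0.10 (SE, adjusted p = 6.31e-13) at 24 h, which is 35.9% of control. At 0 h all 3 Ikaros libraries of Slc1a5 already lay below the control range, with a difference of -0.16 that did not pass (adjusted p = 0.398).

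Slc1a4 (ENSMUSG00000020142; chromosome 11, 20302180 to 20332713, reverse strand) started on the other side. At 0 h it read 12.38, 12.35 and 11.98 in control batches 1, 2 and 4 and 12.90, 12.76 and 12.38 in Ikaros cells. Each Ikaros library was above the control library of its own batch, and the difference of 0.45 ± 0.13 (SE, adjusted p = 0.0256) was lost in a fit of the 0 h groups alone (adjusted p = 0.178) and without batch 1 or batch 2 (0.41 and 0.47, adjusted p = 0.344 and 0.300). By 12 h the values were 12.54, 12.30 and 12.20 against 11.06, 10.92 and 10.91, and by 24 h 12.49, 12.44 and 12.46 against 9.54, 9.62 and 9.46. Slc1a4 libraries of Ikaros cells thus ended close together, at 13.2% of control. The difference was -0.23 (6 h, not called), -1.38 (12 h), -2.82 (18 h) and -2.92 ± 0.13 (24 h; SE, adjusted p = 1.78e-16).

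RefSeq promoters, 250 bases before to 50 after the start on GRCm38.p6, were matched to 7 of the 10 members (Slc3a2, Slc7a1, Slc7a6, Slc7a11, Slc1a4, Slc38a2 and Slc43a1). The letters TGATGCAA, the composite site at which Atf4 pairs with a C/EBP protein, were found in 2 of the 7 on searching both strands, and in 0.895% of all 32851 promoters. The E-box CACGTG was found in 1 of the 7 (Slc43a1) and in 7.15% of all promoters. TGGGAA, the core bound by Ikaros, was found in 4 of the 7 (Slc3a2, Slc7a11, Slc1a4 and Slc43a1) and in 25.6% of all. The RefSeq windows of Slc3a2 and Slc43a1 lie 9472 and 1473 bases from the gene starts of the GENCODE annotation, within the gene spans given above, so the CACGTG match and 2 of the 4 TGGGAA matches come from inner starts. The windows of Slc7a1 and Slc7a6, which were called lower by 24 h, held none of the searched motifs, and neither did that of Slc38a2. Shown here are the pair of promoters that hold TGATGCAA, and that of Slc38a2, which was not called lower at any time. Each runs 5′ to 3′ on the gene's own strand, which is the reverse strand for all of them. Capitals mark TGATGCAA or its reverse complement, beginning at -66 and -47 from the start in Slc7a11 and at -4 in Slc1a4, and TGGGAA, beginning at -180 and -141. None of the marked letters overlap, and a match describes these windows only.
Slc7a11 (chr3:50443564-50443863): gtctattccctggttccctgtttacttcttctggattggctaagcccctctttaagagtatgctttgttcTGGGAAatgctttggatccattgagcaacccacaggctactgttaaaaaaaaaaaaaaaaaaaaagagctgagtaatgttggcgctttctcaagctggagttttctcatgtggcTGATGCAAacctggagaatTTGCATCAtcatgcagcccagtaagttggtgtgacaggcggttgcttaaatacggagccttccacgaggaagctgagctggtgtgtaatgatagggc
Slc1a4 (chr11:20332664-20332963): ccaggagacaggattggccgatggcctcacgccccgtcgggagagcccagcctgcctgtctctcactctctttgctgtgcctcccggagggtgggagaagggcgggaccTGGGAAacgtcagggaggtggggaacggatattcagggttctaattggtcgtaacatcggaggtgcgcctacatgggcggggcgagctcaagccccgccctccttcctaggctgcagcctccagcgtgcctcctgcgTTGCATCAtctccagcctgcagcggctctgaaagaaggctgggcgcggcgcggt
Slc38a2 (chr15:96699679-96699978): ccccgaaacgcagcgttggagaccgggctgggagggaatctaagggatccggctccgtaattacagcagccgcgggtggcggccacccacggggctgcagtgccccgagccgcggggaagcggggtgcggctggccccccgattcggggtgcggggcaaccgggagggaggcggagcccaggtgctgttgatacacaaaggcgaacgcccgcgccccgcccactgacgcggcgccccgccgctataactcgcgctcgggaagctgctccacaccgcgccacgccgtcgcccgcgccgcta

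Slc38a1 and Slc38a2 encode SNAT1 and SNAT2, sodium-coupled carriers that load the cell with glutamine, alanine and other small neutral amino acids. These members were not called lower in Ikaros cells at any time. Slc38a1 (ENSMUSG00000023169; chromosome 15, 96571418 to 96642913, reverse strand) read 14.13, 14.13 and 13.84 in control cells at 6 h and 15.03, 14.86 and 14.39 in Ikaros cells. At 24 h it read 14.35, 14.42 and 14.28 against 14.81, 14.83 and 14.81. Neither time showed overlap, and from 12 h on all 3 Ikaros libraries lay above the whole control range. The differences were 0.72 ± 0.17 at 6 h (SE, adjusted p = 0.00114), then 0.63 at 18 h (adjusted p = 0.00200) and 0.47 at 24 h (adjusted p = 0.0159), the last being 139% of control with a 95% interval of 109% to 175%. Leaving out batch 3 ended the calls at 6, 18 and 24 h (0.73, 0.59 and 0.50, adjusted p = 0.0613, 0.0829 and 0.124), and leaving out batch 1 that at 24 h (0.47, adjusted p = 0.0805). At 12 h the difference of 0.40 did not pass (adjusted p = 0.0504), and it did with the culture batch as a block (adjusted p = 0.0110). The lines differed by 0.17 at 0 h, which was not called. In the main limma fit the change from 0 h was 0.55 at 6 h (adjusted p = 0.114), and it was not called later either. Against their own 0 h, Ikaros cells stood at 0.19 and control cells at -0.36 at 6 h, neither called (limma, adjusted p = 0.409 and 0.153).

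Slc38a2 (ENSMUSG00000022462; chromosome 15, 96687392 to 96699730, reverse strand) had a call at 18 h only. Its control libraries at 18 h read 14.41, 14.16 and 13.46 in batches 1, 3 and 4 and its Ikaros libraries 14.66, 14.69 and 14.52. The Ikaros libraries were close together while control batch 4 was low, and this library carried the lowest value of the 18 control libraries. The difference was 0.61 ± 0.22 (SE, adjusted p = 0.0169), and 0.34 without that library (adjusted p = 0.184). Without batch 3 it was 0.65 (adjusted p = 0.132). At 24 h the values were 14.33, 14.25 and 13.79 against 14.68, 14.44 and 14.48, without overlap. The 24 h difference of 0.41 ± 0.22 did not pass (SE, adjusted p = 0.101), and it did with the culture batch as a block (adjusted p = 0.0143).

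**Figure D2:**
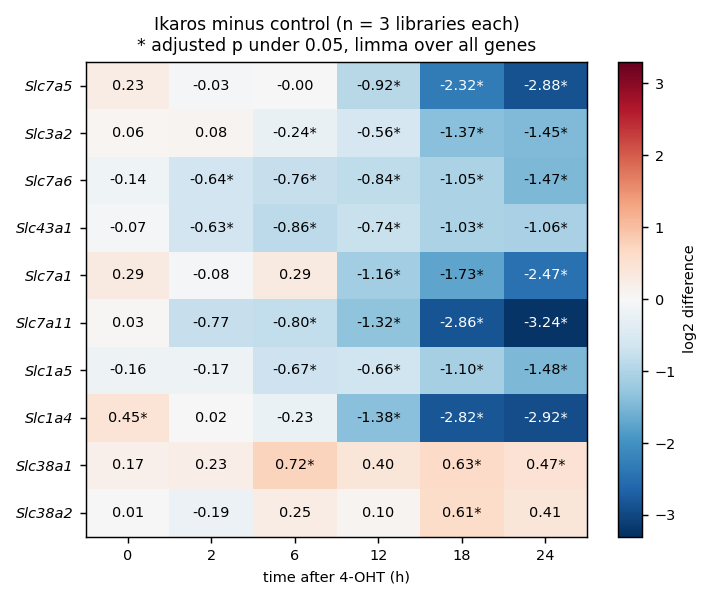
Ikaros minus control difference in log2 expression (colour and number) for each transporter gene (rows) at each time in hours (columns), from group means of n = 3 libraries, where an asterisk marks an adjusted p under 0.05. Asterisks on blue cells stand on Slc7a6 and Slc43a1 at 2 h (-0.64 and -0.63), while Slc7a11 is bluer there without one (-0.77), and on 8 genes at 12 h, and the blue deepens to -3.24 for Slc7a11 at 24 h, and the asterisks of the bottom 2 rows stand on positive values.

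The gap between the lines was also set against the gap they had at 0 h. No member had moved at 2 h by limma (3 at an unadjusted p under 0.05), where 3.1% of all genes were called. By 6 h 4 members had moved, all downward, namely Slc7a6, Slc1a5, Slc1a4 and Slc43a1, beside 15.9% of all genes in either direction. A fit of only the groups compared called 2. The culture batch as a block with separate 0 h blocks called 7, namely these 4, Slc3a2 and Slc7a11 downward and Slc38a1 upward (0.55). In either direction, 29.7% (12 h), 43% (18 h) and 48.4% (24 h) of all genes had moved. At each of these times Slc7a5, Slc3a2, Slc7a6, Slc43a1, Slc7a1, Slc7a11, Slc1a5 and Slc1a4 had all moved downward. By 24 h the largest of these moves was that of Slc1a4, at -3.37 ± 0.18 (SE, adjusted p = 6.60e-14). Slc38a1 had moved by 0.30 and Slc38a2 by 0.40 at 24 h, and neither passed (adjusted p = 0.311 and 0.291). Leaving out 1 replicate left 0 to 4 members called at 6 h and 3 to 8 at 12 h, the low counts being those without replicate 1 or 2. Comparisons with 0 h share the 0 h libraries, so the times are not independent of each other.

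Which interval held the movement was tested on the later cultures without 0 h. Between 2 and 6 h the difference moved in Slc1a5 alone, by -0.50 (adjusted p = 0.0334), beside 5.96% of all genes. That call was lost without replicate 1 or 2 and in a fit of only the groups compared, and 3 members were called with the culture batch as a block and separate 0 h blocks. Between 6 and 12 h it moved in Slc7a1 by -1.46, in Slc1a4 by -1.16, in Slc7a5 by -0.92 and in Slc3a2 by -0.32, beside 16% of all genes. Between 12 and 18 h it moved in Slc7a11 by -1.53, in Slc1a4 by -1.43, in Slc7a5 by -1.39, in Slc3a2 by -0.80 and in Slc1a5 by -0.44, beside 11.7% of all genes. Slc7a5, Slc3a2 and Slc1a4 thus passed in both of these intervals. Between 18 and 24 h limma called no member (3 at an unadjusted p under 0.05, and 1 with the culture batch as a block), beside 2.63% of all genes. Leaving out 1 replicate left between 1 and 5 members called from 6 to 12 h and between 2 and 4 from 12 to 18 h.

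**Figure D3:**
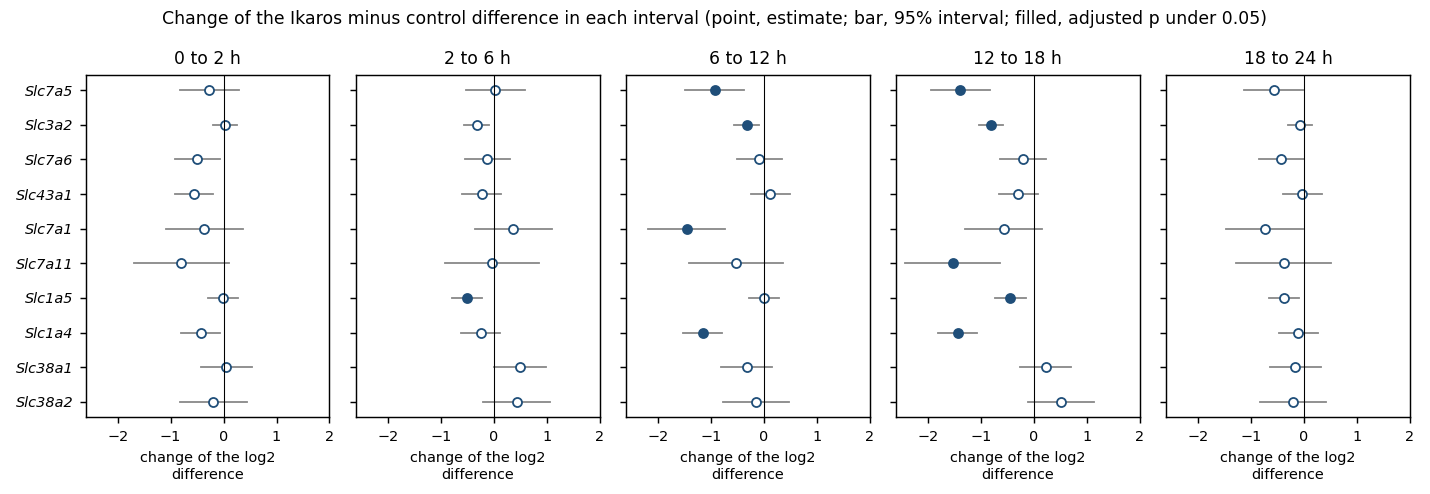
Change of the Ikaros minus control log2 difference (horizontal axis) in each interval between collection times (panels) for the 10 genes (rows), where points are limma estimates, bars are 95% intervals and filled points have an adjusted p under 0.05. Filled points stand in the middle intervals, 1 of them from 2 to 6 h, 4 from 6 to 12 h and 5 from 12 to 18 h, and every filled point lies left of 0.

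Within Ikaros cells, 8 of the 10 members had fallen below their own 0 h level by 12 h. Slc7a6, Slc43a1 and Slc1a4 fell by 2 h, by 0.70, 0.68 and 0.47 on the log2 scale. At that time 19.2% of all genes were called in either direction. These falls at 2 h depended on the fit, since 0 members were called in a fit of only the groups compared and 7 with the culture batch as a block. At 6 h 6 members had fallen (32.8% of all genes called in either direction), and 8 at 12, 18 and 24 h (46.1%, 54.6% and 60.6%). At 24 h Slc7a11 stood at -3.22, Slc1a4 at -3.14, Slc7a5 at -3.08 and Slc7a1 at -2.74, and the smallest of the 8 falls was that of Slc43a1, at -0.99. Slc38a1 at 0.25 and Slc38a2 at 0.26 did not pass (adjusted p = 0.200 and 0.301).

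In control cells, which received the same drug, limma called no member against 0 h at 2, 6, 12, 18 or 24 h, and 0.047%, 5.1%, 0.0549%, 0.478% and 0.47% of all genes. At an unadjusted p under 0.05 there were 0, 4, 0, 2 and 2 members. The 6 h control cells stood apart in size. Against 0 h, Slc7a1 stood at -0.59, Slc38a2 at -0.58, Slc7a11 at -0.52, Slc38a1 and Slc7a5 at -0.36 and Slc7a6 at -0.22. Slc1a5 (0.20), Slc3a2 (0.10), Slc43a1 (0.09) and Slc1a4 (0.02) went the other way. With the culture batch as a block 6 members were called at 6 h, 5 of them lower. The median control change over the 10 members was -0.29 at 6 h and between -0.10 and 0.06 at the other times.

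Culture batch moved with the members in both lines. In each of the 10 groups after 0 h, the batch 4 library was the lowest of its group for 5 to 8 of the 10 members. The share over all genes was not computed. In Ikaros cells at 12 h, batch 1 was the lowest for as many members as batch 4, at 5 each. Slc1a5 went the other way, with batch 4 its highest control library at each time after 0 h. At 2 h, Slc7a1 read 13.75 in control batch 4 beside 14.63 and 14.60 in the other control batches, and 13.64 in Ikaros batch 4 beside 14.63 and 14.49. Slc7a11 and Slc38a2 were lowest in batch 4 in both lines at 2 h and at 6 h as well. Since each batch held both lines, the difference can be read within it: at 18 and 24 h it was negative in batches 1, 3 and 4 alike for the 8 lower members and positive in all 3 for Slc38a1 and Slc38a2.

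Of 3 pairs of members that work together or are close relatives, 2 had another ratio in Ikaros cells than in control cells late in the course. For each library the log2 value of one gene was subtracted from that of its partner, so that any constant of a gene cancels between the lines. Slc7a5 minus Slc3a2 was -0.12 ± 0.12 in control cells and -1.06 ± 0.14 in Ikaros cells at 18 h (SD, n = 3). At 24 h it was 0.01 ± 0.01 and -1.42 ± 0.20, without overlap at either time. Over both times Slc7a5 RNA was thus lower relative to Slc3a2 RNA in Ikaros cells. The difference was -1.19 (exact permutation test within times, two-sided, p = 0.005, adjusted over 3 pairs p = 0.0075), and protein was not measured here. Slc1a5 minus Slc1a4 went the other way and was higher in Ikaros cells by 1.58 (exact permutation p = 0.005, adjusted p = 0.0075). Slc38a2 minus Slc38a1 differed by -0.04 (exact permutation p = 0.7), with overlap between the lines at 18 and at 24 h. The smallest p that the 400 arrangements allow is 0.005. The same culture batches supplied both times, and the test permuted each time on its own without pairing by batch. It thus counted libraries of one batch as independent, and its p-values may be too small.

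Earlier in the course the Slc38 genes had another ratio in each line. Slc38a2 minus Slc38a1 was -0.40 to -0.32 in control cells and -0.87 to -0.79 in Ikaros cells at 6 h. Later the ranges overlapped, at -0.46 to 0.0021 and -0.26 to -0.13 by 18 h. It is given as a description, since the test was made at 18 and 24 h.

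**Figure D4:**
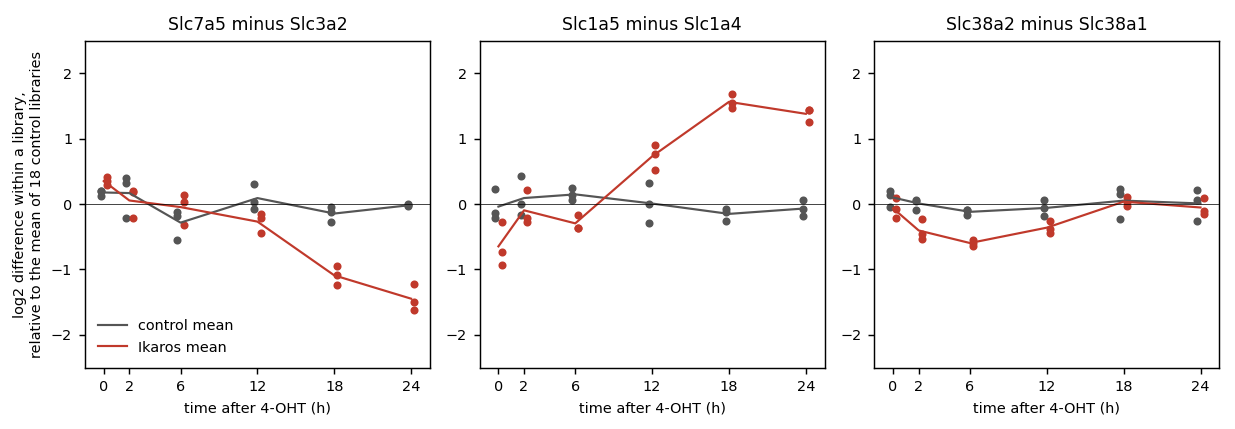
Log2 value of one gene minus that of its partner within each library (vertical axis, relative to the mean of the 18 control libraries) against hours after 4-OHT, with 1 point per library and lines through the means of control (grey) and Ikaros (red) cells, n = 3. Relative to control cells, Slc7a5 drops against Slc3a2 and Slc1a5 rises against Slc1a4 in Ikaros cells at 18 and 24 h (-1.19 and 1.58 over both times), and the Slc38 lines meet again.

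The likeness of the courses was measured as the Pearson correlation over the 12 group means, which is a description because the groups share lines, times and batches. With Slc7a5, the correlation was 0.982 for Slc1a4, 0.981 for Slc7a1, 0.974 for Slc3a2, 0.960 for Slc7a11, 0.918 for Slc1a5, 0.883 for Slc7a6 and 0.768 for Slc43a1. It was -0.651 for Slc38a1 and -0.693 for Slc38a2. The distribution of this correlation over all genes is not given here, so the values do not set the members apart from other genes. Among 6358 other genes with a symbol and a mean at or above the median gene, the courses most like that of Slc7a5 were those of Eif5a (0.988), Atic (0.988), Ranbp1 (0.988), Scarb1 (0.987) and Mars (0.987). Eif5a is a translation factor, Atic an enzyme of purine synthesis, Ranbp1 a cofactor of nuclear transport, Scarb1 a lipoprotein receptor and Mars the transfer RNA synthetase for methionine.

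Other amino acid transporters went both ways. Of 40 listed symbols for carriers of the plasma membrane and lysosome, among which Slc66a1 and Pqlc2 name the same gene, 15 had a row, and at 24 h 7 were higher, 3 lower and 5 not called, beside 62.9% of all genes called and 31.9% lower, with a median difference of 0.40. The share called was thus close to that of all genes. The largest rise was that of Slc7a7, which encodes y+LAT1, the sister light chain of Slc7a6, at 13.69 ± 0.16 in Ikaros cells beside 11.28 ± 0.06 in control cells (SD, n = 3). Its difference of 2.40 ± 0.14 (SE) passed at adjusted p = 4.03e-14. The largest fall was that of Slc6a9, the glycine carrier, from 10.78 ± 0.38 to 6.71 ± 0.49 (SD, n = 3), a difference of -4.07 ± 0.22 (SE, adjusted p = 9.56e-15).

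Genes that respond to a shortage of amino acids were mostly lower. Of 25 genes of the list around the transcription factor Atf4, 21 had a row, and at 24 h 18 were lower, 1 higher and 2 not called, beside the 31.9% of all genes that were lower. Their median difference was 0.06 (6 h), -0.37 (12 h), -1.18 (18 h) and -1.51 (24 h). Atf3, a stress-induced transcription factor, had the largest fall, from 10.48 ± 0.32 to 6.01 ± 1.06 (SD, n = 3), at -4.47 ± 0.58 (SE, adjusted p = 2.11e-07). Ddit4, an inhibitor of mTORC1 signalling, was the 1 gene of this list that was higher, by 0.75 ± 0.25 (SE, adjusted p = 0.0111).

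Genes of amino acid sensing upstream of mTORC1 went both ways, with 10 higher, 9 lower and 13 not called of the 32 with a row, and a median of -0.08. This again is near the 62.9% of all genes called. The list held 39 symbols, in which older and newer names of the same gene (Gatsl3 and Castor1, Gatsl2 and Castor2, Bmt2 and Samtor) count separately. Sesn3, a sestrin that restrains mTORC1, had the largest rise at 5.05 ± 0.38 (SE, adjusted p = 9.64e-12), but its difference at 0 h was already 3.91. Fnip2, a partner of folliculin, had the largest fall, at -2.87 ± 0.43 (SE, adjusted p = 1.58e-06). Of 14 genes for the use of branched-chain amino acids and glutamine, all with a row, 8 were lower, 3 higher and 3 not called, beside 31.9% of all genes lower and 62.9% called, with a median of -0.40. Bcat1, the cytosolic aminotransferase that takes the amino group from leucine, was at 9.61 ± 0.33 in Ikaros cells beside 13.19 ± 0.13 in control cells (SD, n = 3), a difference of -3.58 ± 0.14 (SE, adjusted p = 5.12e-17). Glul, which makes glutamine, was higher by 1.44 ± 0.17 (SE, adjusted p = 5.66e-08).

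**Figure D5:**
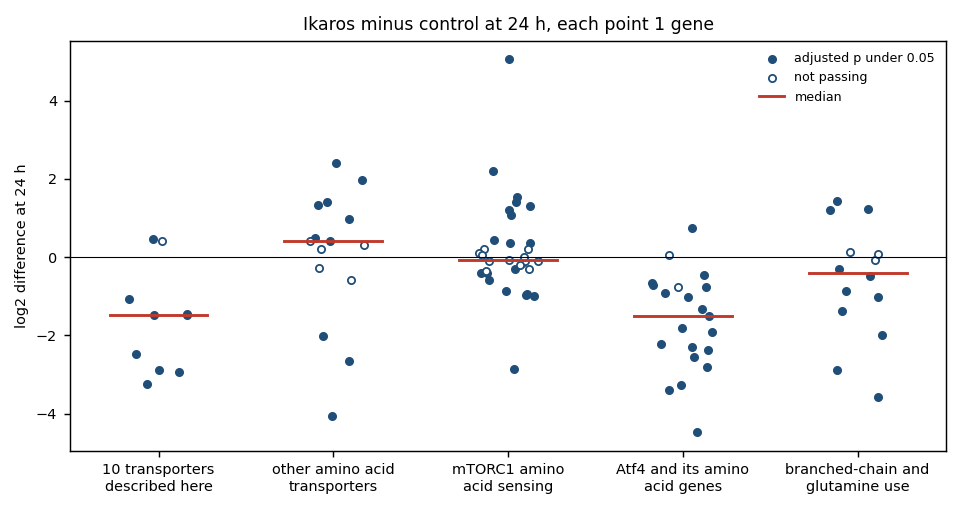
Ikaros minus control log2 difference at 24 h (vertical axis) for each gene of the 10 transporters and of 4 other lists (horizontal axis), where filled points have an adjusted p under 0.05 and red bars are medians. The medians of the 10 transporters (-1.47) and of the Atf4 list (-1.51) lie low, that of the other transporters lies at 0.40, and the list of mTORC1 sensing genes spreads on both sides of 0.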

How the data were processed

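Polyadenylated RNA of 36 B3 cultures had been sequenced. Per the study's methods and processing notes, the authors aligned reads to mm10 (GRCm38) with TopHat2, counted them per gene with HTSeq, and corrected the counts for gene length and GC content with cqn and for library preparation with ComBat. The deposited values are log2 expression, shifted so that the lowest in the table is 1; levels are relative to this shift, and differences are not affected by it. Counts and depth were not used here, so no counting error is given, and 3 libraries per group limit the precision. Spread that ComBat removed before deposition cannot be seen, so errors may be too small.

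All 12762 genes were fitted with limma 3.58.1 (R 4.3.3; lmFit, contrasts.fit, eBayes) with 1 mean for each of the 12 line and time groups. P-values are two-sided and Benjamini-Hochberg adjusted over all genes. No filter on low values was applied. The fit was tested on simulated data. Pair ratios were tested with exact permutations of the line within time (numpy 2.4.6). Positions are from GENCODE M21, promoters from RefSeq. The members, the gene lists and the tests were chosen with earlier results of these data known. All members were named, from each other list the called gene with the largest rise and fall at 24 h, and the 5 genes most correlated with Slc7a5. The labels give a batch number to both lines, and the methods describe batches as repeats of the time course. Over the 18 pairs of one batch and time, the deviations from the group mean had a correlation of -0.06 to 0.507 (median 0.127). Alternatives were the batch as a block, with and without separate 0 h blocks, a 25th percentile filter, quantile normalization, eBayes with trend and robust settings, only the groups compared, leaving out replicates in turn and, chosen after seeing the data, leaving out control 18 h batch 4 or control 6 h batch 1.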

Additional observations from a re-analysis of the deposited data

Results flagged for a closer look

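The Ikaros minus control difference was itself different between times for most members, which is why these results were singled out. Against 0 h, the difference had moved in 4 members at 6 h (15.9% of all genes) and in 8 at 12, 18 and 24 h (29.7%, 43% and 48.4%), with 0 to 4 members at 6 h and 3 to 8 at 12 h when 1 replicate was left out. Between successive times it had moved in 1 member from 2 to 6 h (5.96% of all genes), in 4 from 6 to 12 h (16%) and in 5 from 12 to 18 h (11.7%), with 0 to 1, 1 to 5 and 2 to 4 when 1 replicate was left out. At 24 h the move from 0 h was -3.11 in Slc7a5, -1.51 in Slc3a2, -2.75 in Slc7a1, -1.33 in Slc7a6, -3.26 in Slc7a11, -1.31 in Slc1a5, -3.37 in Slc1a4 and -0.99 in Slc43a1. Groups of 3 libraries were not screened for outlying samples.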

How the results depend on the processing

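Of 290 recomputed counts and pair tests, 248 kept their direction and side of the threshold or stayed within 1.5 times the main count. At 18 and 24 h, 210 of 218 single-gene results did, 6 lost and 2 gained a call, all in Slc38a1 and Slc38a2. In a fit of only the compared groups the calls between the lines came to 0 at 0 h, 0 at 2 h and 3 at 6 h, those of the change from 0 h to 2 at 6 h, those from 2 to 6 h to 0, those from 6 to 12 h to 2, and those of Ikaros cells at 2 h against 0 h to 0. The replicate block called 1 member from 18 to 24 h, 7 in Ikaros cells at 2 h and 6 in control cells at 6 h, and with separate 0 h blocks 2, 6 and 4. Separate 0 h blocks also called 4 between the lines at 2 h, 1 for the change from 0 h at 2 h, 7 at 6 h and 3 from 2 to 6 h. With 1 replicate left out, calls ranged from 0 to 1 at 0 h, 0 to 3 at 2 h and 3 to 6 at 6 h between the lines, from 0 to 4 at 6 h and 3 to 8 at 12 h for the change from 0 h, from 0 to 1, 1 to 5 and 2 to 4 for the 3 intervals up to 18 h, and from 1 to 3 and 3 to 7 in Ikaros cells at 2 and 6 h. The pair difference ranged from -1.28 to -1.14 for Slc7a5 minus Slc3a2 and stayed at 1.58 for Slc1a5 minus Slc1a4 (exact permutation, adjusted p = 0.0833, where the smallest p is 0.0556), and ranged from -0.16 to 0.04 for Slc38a2 minus Slc38a1, which was 0.00473 without replicate 1 and 0.0405 without replicate 2. The low-value filter left out Slc7a11. The block changed no other count by more than 1.5 times, and the cause of these changes was not tested.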
